A study of Mus musculus with 3 samples.

Results

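Abl1 was examined in Abelson-transformed mouse pro-B cells, in all mapped reads of 3 chromatin immunoprecipitation (ChIP-seq) libraries that fell in a window around the gene on chromosome 2 (mm9). The window was set by position alone, from 14 kb before the gene to 20 kb past it, and holds 150 bins of 1 kb, where the genome has 2285014 bins with a read in any library. The gene lies on the plus strand. The cells carry the label RAG2-/- and the strain label C57BL/7, and all 3 libraries came from cells described in the same way. Each library was made with its own antibody: 1 against H3R2me2s (arginine 2 of histone H3, dimethylated symmetrically), 1 against H3K4me3 (lysine 4, trimethylated), and 1 against both marks on one tail, H3R2me2sK4me3, called the combined mark here. The H3K4me3 antibody was a commercial one (Abcam), and the others were made by the submitters. The window held 1046 of 6923765 H3R2me2s reads, 1463 of 7128852 combined-mark reads and 3158 of 13898471 H3K4me3 reads. With 1 library per antibody there is no replicate check and no p-value, and every interval below covers counting error only. The intervals may be too narrow even for that, since PCR reads are not independent molecules. No input library was used, so more copies of a stretch of DNA and more of a mark on it cannot be told apart. The labelled cell type was not checked against marker genes, because gene positions of mm9 were not used here.

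Abl1 encodes a tyrosine kinase of the cytoplasm and nucleus, with SH3, SH2 and kinase domains followed by a long C-terminal tail. Its transcripts start at alternative first exons, far apart, which are joined to the same set of downstream exons. Abelson murine leukemia virus carries a spliced copy of part of those exons, fused to viral gag sequence, and the kinase it encodes keeps early B-lineage cells growing in culture. A provirus in the cells' DNA therefore holds Abl1 exons without introns, and short reads from such a copy would map to the gene's own exons and stop where the exons stop. H3K4me3 is the standard mark of active promoters.

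The RefSeq promoter table holds 2 starts of Abl1 that lie close together, given for GRCm38.p6. The 250 bases before the first of these are shown because a CpG-rich promoter is the usual setting of a strong H3K4me3 peak. They lie at chr2:31759689-31759938 (GRCm38.p6, plus strand), and capitals mark the GC box GGGCGG.
Abl1 start 1: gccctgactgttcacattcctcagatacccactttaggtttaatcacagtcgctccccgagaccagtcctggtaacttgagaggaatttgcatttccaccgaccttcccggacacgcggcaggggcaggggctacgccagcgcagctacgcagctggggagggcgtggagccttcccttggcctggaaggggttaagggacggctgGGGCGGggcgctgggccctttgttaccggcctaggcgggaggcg
This stretch held 16 CpG dinucleotides, against a median of 6 over 32817 promoters of the same length, and 25.4% of those promoters held as many or more. It held 1 GC box when GGGCGG and its reverse complement CCGCCC were searched on the plus strand, and 32.7% of all promoters held at least 1. The build of the table differs from that of the reads, so no peak was placed on this sequence by position. Which of the peaks described below, if any, lies at this sequence was not tested.

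Reads were moved 75 bp towards the middle of their fragments and counted in 1 kb bins. A bin was called at 15 or more H3R2me2s reads, 16 combined-mark reads or 25 H3K4me3 reads, which is at least 4 times the library's mean and has a Poisson upper tail under 1e-06. In the window 13 of 150 bins were called for H3R2me2s, where 1.23% of all bins with reads were. For the combined mark 19 were called, with 1.45% over the genome. For H3K4me3 26 were called, with 2.45% over the genome. Called bins no more than 1 kb apart formed 9 regions. Of these, 3 were broad peaks in the 5-prime and middle parts of the gene. A further 5 lay in the last 30 kb of the gene, and 1 lay past its end, at 31678001 to 31679000, with 6, 8 and 33 reads and a call for H3K4me3 alone.

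**Figure D1:**
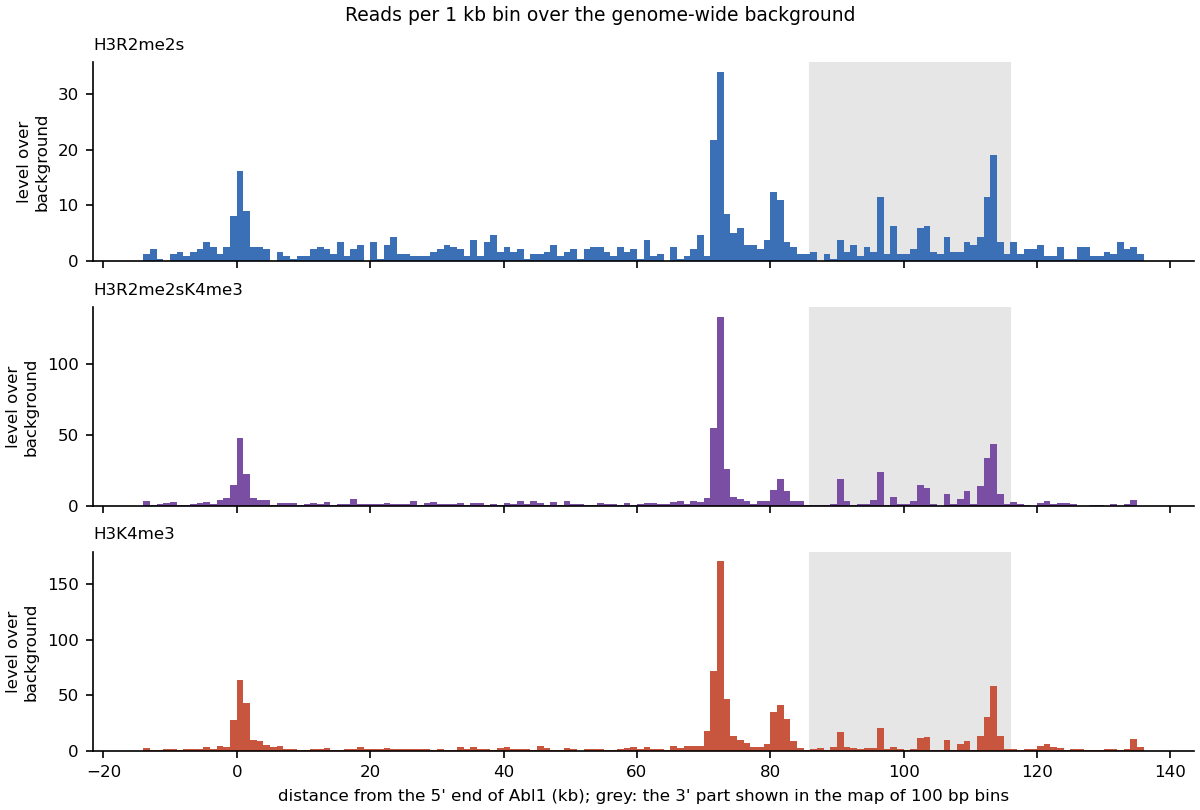
Reads per 1 kb bin, as multiples of the genome-wide background of each library, against the distance in kb from the 5-prime end of Abl1. All 3 libraries have a peak at the 5-prime end, a higher one 71.5 kb into the gene with a smaller one after it, and a group of separate peaks in the last 30 kb (grey).

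The 5-prime promoter carried all 3 marks. Its region, 31543001 to 31548000, was called over 5 kb for H3K4me3 and over 3 kb for each of the other marks. H3K4me3 reads in its 5 bins were 82, 190, 127, 28 and 26 from left to right. Those of the combined mark were 27, 89, 42, 11 and 8, and those of H3R2me2s were 19, 38, 21, 6 and 6. The highest bin was the same in the 3 libraries, and H3K4me3 alone passed its limit in the outer 2 bins, on the side of the gene body. In 100 bp bins the highest count of both H3K4me3 (54 reads) and the combined mark (24 reads) was at 31544701 to 31544800. H3R2me2s had 2 bins tied at 9 reads, the first at 31544501.

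As counts scaled to library totals (CPM), H3R2me2s stood at 13.0, the combined mark at 24.8 and H3K4me3 at 32.6 in the promoter region. Of all 19747 regions called in any library, 74.1% had less H3R2me2s, 72.1% less of the combined mark and 73.9% less H3K4me3. The CPM ratio of H3R2me2s to H3K4me3 was 0.399 (95% interval 0.314 to 0.501). The ratio of the combined mark to H3K4me3 was 0.762 (0.637 to 0.908), and that of H3R2me2s to the combined mark was 0.524 (0.402 to 0.679). Over 10359 regions with at least 30 reads in each library the medians of these ratios were 0.400, 0.815 and 0.484, all inside the promoter's intervals. Levels from different antibodies are not calibrated, so these ratios are not shares of marked histone tails. Scaling to background in place of library totals lowered the first ratio from 0.399 to 0.251. The 3 H3K4me3-called regions elsewhere whose levels lay nearest to those of this promoter, by Euclidean distance of log2(CPM + 0.5) over the 3 libraries, were chr18:25325001-25330000, chr15:98822001-98825000 and chr1:155177001-155181000, at distances of 0.040, 0.043 and 0.045 on the log2 scale.

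The strongest region of the gene was not the 5-prime one. It lay at 31614001 to 31620000. H3R2me2s had 179 reads there against 90 at the 5-prime promoter, the combined mark 431 against 177, and H3K4me3 983 against 453. In CPM these were 25.9, 60.5 and 70.7, and 92.1%, 93.4% and 93.9% of all called regions had less. The highest bin, 31616001 to 31617000, held 80, 249 and 507 reads. In 100 bp bins H3K4me3 reached 69 reads and the combined mark 47 reads at 31616101 to 31616200, with H3R2me2s highest in the next bin at 16 reads. The ratio of the combined mark to H3K4me3 was 0.855 (0.762 to 0.958) and that of H3R2me2s to H3K4me3 was 0.366 (0.310 to 0.429), and both intervals overlapped those of the 5-prime promoter.

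The third peak, at 31624001 to 31628000, differed in its mix of marks. It held 338 reads of H3K4me3 and 69 of H3R2me2s but 83 of the combined mark. H3R2me2s relative to H3K4me3 was 0.410 (0.312 to 0.532), which overlaps both peaks before it. The combined mark relative to H3K4me3 was 0.479 (0.372 to 0.610), below the intervals of both, and 4.26% of regions with 30 reads in each library had a lower value. Its H3K4me3 reads were spread over 105, 124, 84 and 25 reads in 4 bins, with no 100 bp bin above 28.

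Between the 5-prime promoter and the second peak reads were few, though above the genome-wide background. The 56 bins from 31553001 to 31609000, all more than 5 kb from a called bin, held 244 H3R2me2s reads, 173 combined-mark reads and 281 H3K4me3 reads. These were 1.85 (1.63 to 2.10), 1.66 (1.42 to 1.93) and 1.68 (1.49 to 1.89) times the genome-wide background of 2.35, 1.86 and 2.98 reads per kb. The 3 levels were alike in size and the intervals overlapped. Background within 5 Mb of the gene stood at 1.45, 1.31 and 1.25 times the genome-wide value. Of 32432 windows of 50 kb with at least 40 such bins, 2.57% had as many H3R2me2s reads per bin or more, 4.61% as many of the combined mark and 3.62% as many H3K4me3 reads. What raised this level was not tested.

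The last 30 kb of the gene held several separate called regions. Here the question was whether the raised reads form short runs with sharp edges in all 3 libraries. By the rule first set, a run was 2 or more adjacent 100 bp bins, up to 4000 bp, with at least 3 reads in each library, and its edge was sharp where the 3 bins on each side held at most 25% of the mean inside. From 31549001 to the end of the gene there were 9 runs, of which 2 had sharp edges. They were 31634501 to 31634700, with 7, 27 and 31 reads (H3R2me2s, combined mark, H3K4me3), and 31640001 to 31640300, with 22, 39 and 54 reads. Over the genome 0.079% of 100 bp bins with reads lay in such runs. That is a share of bins. The share of runs with sharp edges was not counted over the genome, so 2 of 9 has no background beside it. The count depended on the read shift: it was 2 with reads moved 75 bp, 1 with reads not moved and 0 with reads moved 150 bp. A limit of 3 reads per 100 bp is also 12.7, 16.1 and 10.1 times background, so raises smaller than these were not detectable at this depth by this rule.

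The edges were also measured base by base on reads left where they mapped, by a rule chosen after the runs had been seen. A block was a stretch of 80 to 4000 bp in which the pooled libraries covered each base at least 3 times, with gaps of up to 50 bp joined. It was sharp-edged where, in every library, the 200 bp on each side held at most 25% of the read density inside. The last 30 kb held 7 blocks of 30 reads or more, and 6 of them had sharp edges in all 3 libraries. Over the genome 18.7% of 32952 blocks of 30 reads or more did. With no minimum of reads it was 6 of 9 blocks in the last 30 kb and 5.03% of 128526 over the genome. A sharp edge by this measure was not enough to set them apart, because the main peaks at the 5-prime promoter and at 31615535 also passed it. The 7 blocks are described in order along the gene, with their outermost mapped bases.

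Block 1 ran from 31634530 to 31634738, or 209 bp, and held 8 H3R2me2s, 33 combined-mark and 46 H3K4me3 reads. The 200 bp on its left held 1, 1 and 1 reads and those on its right 0, 2 and 1. Block 2 ran from 31640026 to 31640297 (272 bp), with 22, 43 and 59 reads inside, 1, 2 and 0 on its left and 0, 0 and 0 on its right. In both blocks the pooled reads fell to 3 or fewer in each 200 bp flank.

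Block 3 spanned 31646181 to 31646340 (160 bp) and held 11, 22 and 33 reads in the same order of libraries. Block 4 spanned 31647752 to 31647944 (193 bp), with 14, 23 and 35 reads. Block 5 spanned 31650066 to 31650213 (148 bp), with 6, 14 and 28 reads. In each of these 3 blocks no flank held more than 2 reads of any library. Block 6, 31653082 to 31653245 (164 bp), held 4, 19 and 23 reads and missed the rule in H3R2me2s, which had 2 reads in its right flank.

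Block 7 was the long one, from 31655731 to 31658271 (2541 bp), with 89, 183 and 338 reads. Its left flank held no read in any library and its right flank held 0, 1 and 2. None of the 25 bins of 100 bp inside it was empty in any library, and the pooled count per bin went from 11 to 36 with a median of 25. H3K4me3 was lower on its 5-prime side, at 131 reads, than on its 3-prime side, at 207 reads. The combined mark had 91 and 92 reads on the same sides, so that its ratio to H3K4me3 went from 1.35 (1.02 to 1.78) to 0.866 (0.670 to 1.11), and those intervals overlap. The difference between the sides was not tested.

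Shorter stacks of reads stood between the blocks. One, at 31652496 to 31652573 (78 bp), held 2, 6 and 15 reads, and another, at 31645814 to 31645870 (57 bp), held 1, 4 and 3. Both are under the 80 bp that the block rule asks for. The bin 31642001 to 31643000 was called for H3R2me2s alone, at 15 reads against 12 and 9, and formed no block.

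**Figure D2:**
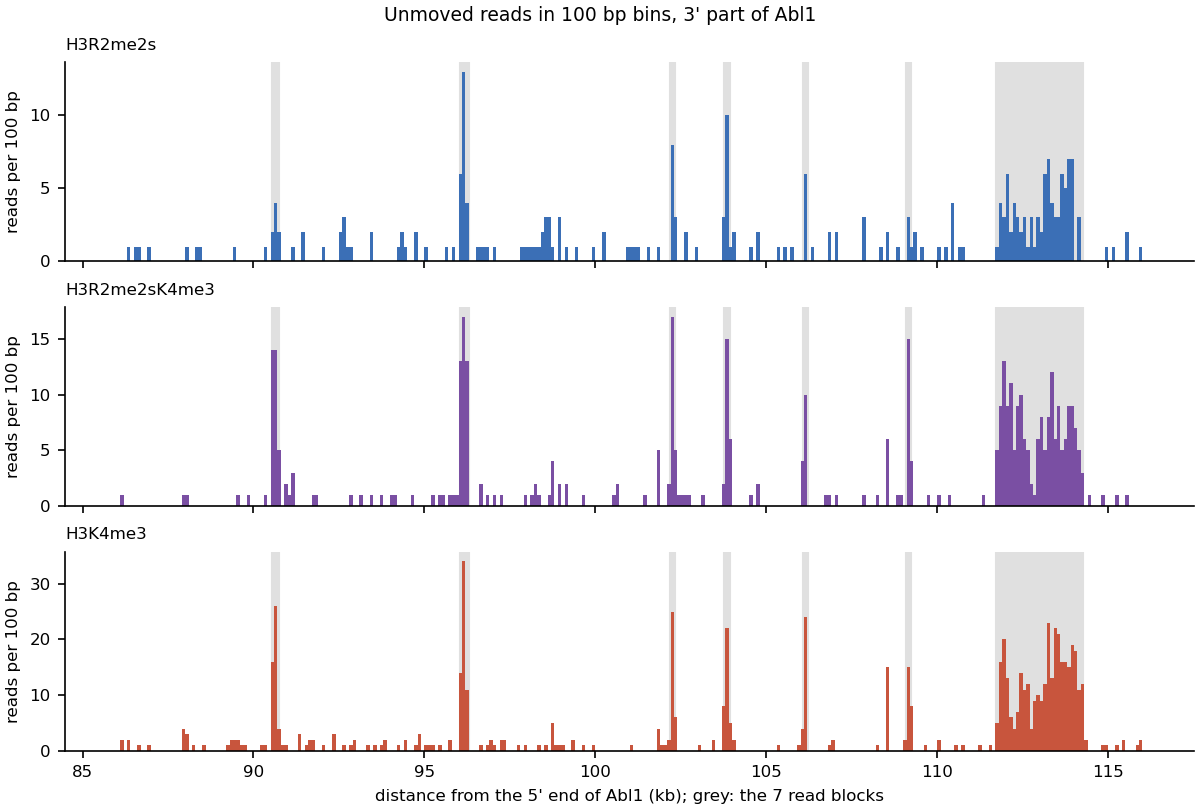
Unmoved reads in 100 bp bins over the last 30 kb of Abl1, 1 panel per library, with the 7 blocks in grey. The 6 short blocks and the long one stand at the same places in the 3 libraries, with few reads between them.

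Between the blocks, reads were about as low as in the 5-prime part of the gene body. These 20055 bp held 91 H3R2me2s reads, 77 combined-mark reads and 103 H3K4me3 reads, shorter stacks included. These were 1.93 (1.55 to 2.37), 2.06 (1.63 to 2.58) and 1.72 (1.41 to 2.09) times background, and the intervals overlapped those of that part in each library. The blocks were drawn from these same reads and take out the stretches of high depth, so low counts between them follow from the rule. The contrast with the levels inside the blocks is therefore no test. Inside the 6 short blocks together, counted over the positions where a whole read can start, the levels were 30.1 (23.2 to 38.3), 90.1 (76.5 to 105.5) and 81.9 (71.5 to 93.4) times background. The long block stood at 15.1 (12.1 to 18.6), 39.3 (33.8 to 45.4) and 45.3 (40.6 to 50.4), lower than the short blocks in each library. The main 5-prime promoter peak, 31544277 to 31545462, stood at 18.5 (13.7 to 24.4), 51.5 (42.3 to 62.0) and 78.1 (69.0 to 88.0) on the same scale. The intervals of the short blocks and the promoter peak overlapped in H3K4me3 and H3R2me2s, and in the combined mark the short blocks were higher. The second peak, 31615515 to 31617640, stood at 27.3, 92.9 and 125.6 times background. Across the 6 short blocks H3K4me3 went from 61.3 to 90.8 times background, the combined mark from 68.4 to 104 and H3R2me2s from 13.5 to 39.9. Single blocks had wide intervals, such as 66.1 to 120.5 for H3K4me3 in block 1.

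The mean positions of the strands differed between the short blocks and the peaks. Sonicated fragments are read from their ends, so that at a peak bound to a nucleosome plus-strand reads lie to the left of minus-strand reads. At the 5-prime promoter peak the mean position of minus-strand reads was 105 bp (SE 26.8) to the right of that of plus-strand reads, over 224 plus and 212 minus reads. At the second peak the offset was 93.9 bp (SE 26.1), over 652 and 627 reads. In the 5 short blocks with sharp edges it was 1.08 (SE 11.3), 3.36 (SE 12.2), -3.03 (SE 10.7), -1.72 (SE 11.0) and 7.97 (SE 8.6) bp. In block 6 it was -17.6 bp (SE 13.6). In 5 of the 6 short blocks the offset was smaller than its SE, and block 6 was the exception. In the long block, at -26.0 bp (SE 60.5), the length made the offset too uncertain to compare.

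**Figure D3:**
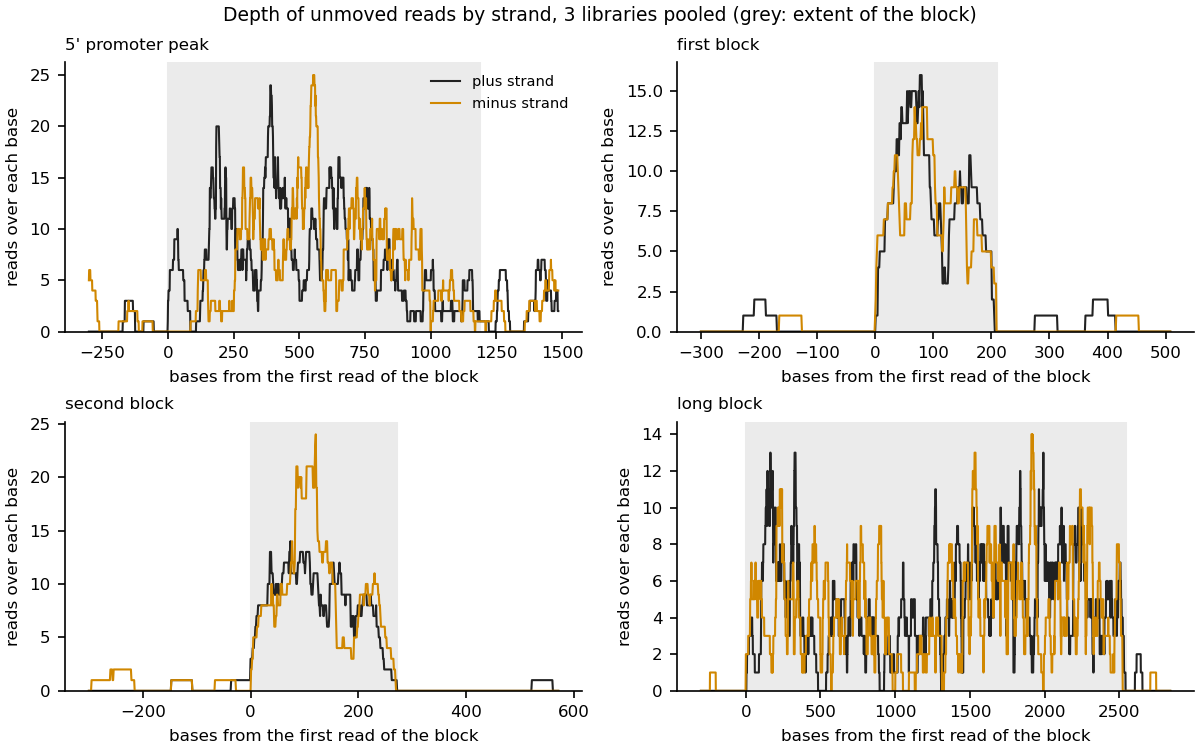
Reads over each base by strand, with the 3 libraries pooled, against the distance in bases from the first read of the block (grey marks its extent). At the 5-prime promoter the minus strand is displaced to the right of the plus strand, whereas in blocks 1 and 2 both strands begin and end at nearly the same bases. The long block shows this at its left end only.

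The outermost reads of the strands lay close together at most ends of the blocks. At block 1 the first plus-strand read began at 31634531 and the first minus-strand read at 31634530, and the last ended at 31634735 and 31634738. At block 3 both strands began at 31646181. Of the 14 ends of the 7 blocks, 12 had the outermost reads of both strands within 10 bp of each other. No share over the other blocks of the genome stands beside this count, and the ends are set by these same reads. Whether it is unusual for blocks of this length was not tested. The exceptions were the right ends of blocks 5 and 7, at 21 and 19 bp. At the left end of the 5-prime promoter peak the strands were 87 bp apart, and at that of the second peak 89 bp. At the right ends of these peaks the last minus-strand read ended 18 and 29 bp before the last plus-strand read, so the right ends did not separate the peaks from the blocks as the left ends did.

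Other sharp-edged blocks in the genome mostly had the offset of a peak. Among 391 of 80 to 299 bp with at least 10 reads on each strand, the median offset was 59.0 bp and the middle 90% went from -15.8 to 98.3 bp. In longer blocks the medians were 68.7 bp (300 to 599 bp), 73.1 bp (600 to 1499 bp) and 75.6 bp (1500 to 4000 bp). Of the 391 short ones, 8.18% had an offset within 10 bp of 0, against 5 of 5 in the last 30 kb of Abl1. The genome had 37 such blocks with those of Abl1 included. Abl1 was the 1 place where 3 or more of them lay within 30 kb. Without the condition on the strands 2 places had 3 or more short blocks within 30 kb, Abl1 among them, and with blocks of all lengths 315 places did. The rule on strands was chosen after the blocks of Abl1 had been seen, and a short block can hold only a small offset, so these counts describe and do not test.

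**Figure D4:**
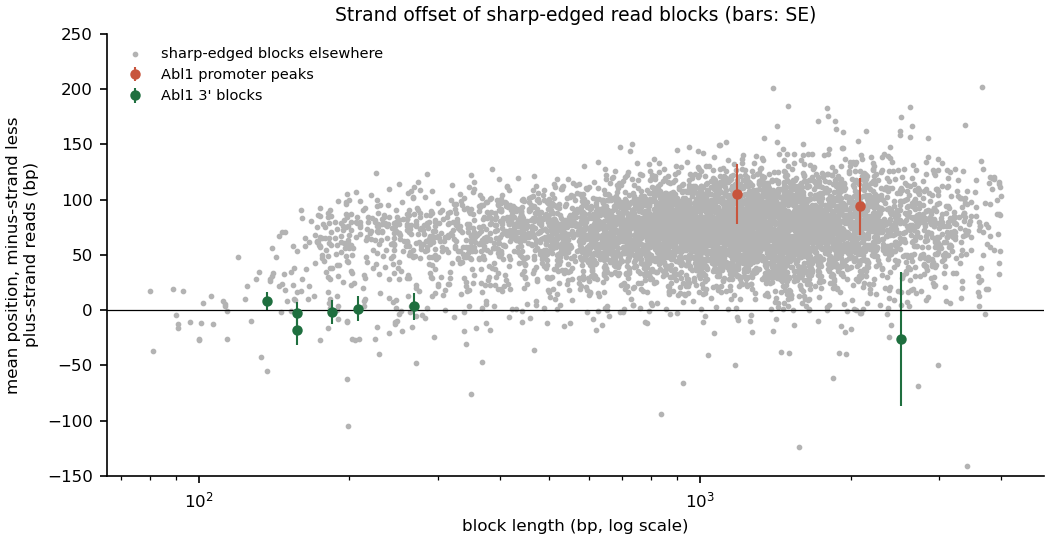
Mean position of minus-strand reads less that of plus-strand reads (bp) against block length (bp, log scale) for sharp-edged blocks, with SE bars for the Abl1 blocks. The 5-prime promoter peak and the second peak of Abl1 (red, labelled promoter peaks) lie at 105 and 93.9 bp among the blocks elsewhere (grey). The blocks of the last 30 kb are green. The short ones with sharp edges lie near 0, block 6 at -17.6 bp and the long block at -26.0 bp (SE 60.5).

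The ratio of the combined mark to H3K4me3 was higher in the short blocks than at the peaks of the gene. The interval of the short blocks overlapped those of stretches with few reads. The 7 blocks together held 154 H3R2me2s, 337 combined-mark and 562 H3K4me3 reads. The ratio of the combined mark to H3K4me3 was 1.17 (1.02 to 1.34), above the intervals at the 5-prime promoter and at both later peaks. In the short blocks alone it was 1.34 (1.08 to 1.65) and in the long block 1.06 (0.877 to 1.27). In the stretches with few reads it was 1.46 (1.07 to 1.98) between the blocks and 1.20 (0.985 to 1.45) from 31553001 to 31609000. These intervals overlapped those of the short blocks and of the long block, so a high ratio was not particular to the blocks. Genome-wide background was 2.35 H3R2me2s, 1.86 combined-mark and 2.98 H3K4me3 reads per kb, in libraries of 6923765, 7128852 and 13898471 reads. Scaled to library totals, background alone thus has H3R2me2s and combined-mark ratios to H3K4me3 above those of the peaks. The ratios in stretches with few reads need therefore not reflect the marks, and whether they differ from background was not tested. The interval of the long block, which holds 610 of the 1053 reads, overlapped those of the 5-prime promoter (0.641 to 0.914) and the second peak (0.763 to 0.959). It lay above that of the third peak (0.373 to 0.612). Overlap of intervals is not a test, so a difference from the 5-prime promoter or the second peak was neither shown nor excluded. Over the 7 blocks H3R2me2s relative to H3K4me3 was 0.550 (0.457 to 0.659), against 1.77 (1.32 to 2.37) between them. The value of the blocks was above the second peak at 0.365 (0.310 to 0.429) and overlapped the 5-prime promoter at 0.397 (0.313 to 0.499). Reads were not moved in all of these values. H3R2me2s relative to the combined mark was 0.471 (0.386 to 0.571), which overlapped both. Of the regions with 30 reads in each library, 90% had a combined-mark ratio below 0.975 and 90% an H3R2me2s ratio below 0.502. The called regions that contain blocks had combined-mark ratios of 1.40, 1.47, 1.41, 1.04 and 1.09, and 3 of these 5 regions (ratios 1.40, 1.41 and 1.04) had under 30 H3R2me2s reads. Among all 19747 regions, with no minimum of reads, 97.7%, 98.0%, 97.7%, 94.0% and 95.5% had a lower ratio. Single blocks held too few reads to be ordered: their combined-mark ratios went from 0.975 to 1.61 with overlapping intervals. In the blocks 2.60% of H3R2me2s, 2.08% of combined-mark and 6.41% of H3K4me3 reads repeated a position and strand. The shares were 6.74%, 2.26% and 6.89% at the 5-prime promoter, and 3.91%, 5.32% and 14.4% at the second peak. There 842 of 984 H3K4me3 reads were distinct, against 419 of 450 at the 5-prime promoter.

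**Figure D5:**
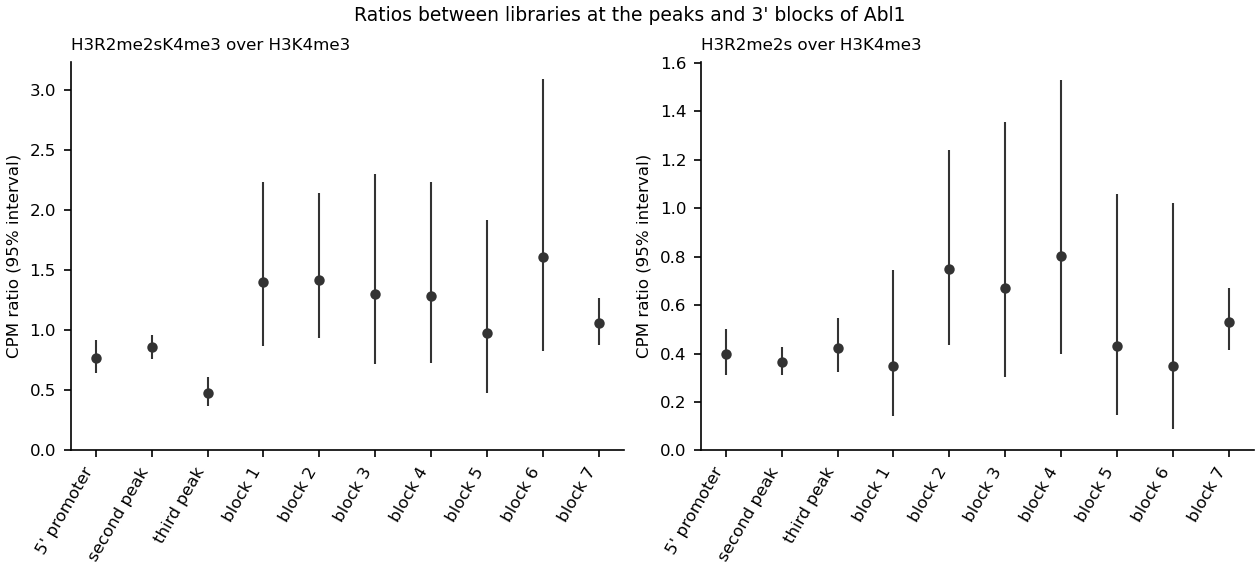
CPM ratio of the combined mark to H3K4me3 (left) and of H3R2me2s to H3K4me3 (right) at the 3 peaks and the 7 blocks of Abl1, with exact 95% binomial intervals. The combined-mark ratio is 0.767, 0.856 and 0.480 at the peaks and lies between 0.975 and 1.61 in the blocks, while the H3R2me2s ratios overlap more.

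Whether the blocks match the gene's exons was not tested, since no exon positions of mm9 were used here. Whether their reads came from an integrated viral copy was not tested, as no viral sequence or junction read was used here.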

How the data were processed

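Each line of the deposited files is 1 mapped read, 39 bases long, and the values used are counts of these lines, which the authors had not normalized. Per the submitters' processing notes the build was mm9. The aligner and the rules on mismatches, repeats and repeated reads are not given in the sources used here. Mismatch rules bear on the edges of read blocks, since reads that run past a spliced edge by a few bases may still map. Per the labels' protocols, libraries had 15 PCR cycles and fragments of 100 to 500 bp.

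Background was the mean of 1 kb bins more than 5 kb from any called bin. Ratios have exact 95% binomial intervals and levels exact 95% Poisson intervals. Python 3.11.15, NumPy 2.4.6, SciPy 1.17.1 and pandas 2.3.3 were used. The run and block rules were tried on simulated reads, with short sharp-edged stretches planted on a flat background. The simulated reads held no ordinary ChIP peaks, so they do not show how often such peaks pass the rules. The window, lists and rules were chosen with earlier results of these data known. Regions named are those called in the window, every run, and the 3 regions nearest in level. Lists of kinase partners and cell markers needed mm9 gene positions and were not used. Alternatives covered read shift, repeated reads, depth, calling limits, bin position, scaling, background and the rules for runs and blocks.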

Additional observations from a re-analysis of the deposited data

How the results depend on the processing

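Of 94 values from 11 results recomputed under 26 settings, 78 stayed within the interval of the value reported, or within 1.5 times for counts, and 16 moved. The number of sharp-edged runs, 2 as reported, was the least stable: 1 with reads not moved, 0 with reads moved 150 bp, 4 with the limit at a tail of 0.05, 1 with a stricter tail, 1 with at least 3 bins per run, 4 with edges up to 0.5 of the inside, 9 with no edge condition, 7 in at least 2 of 3 libraries and 12 with reads pooled. The number of sharp-edged blocks, 6 as reported, went from 4 to 7 under 8 settings, all chosen after seeing the data. Called at 8 times the mean, the promoter was 1 kb wide in H3R2me2s and 3 kb in H3K4me3. Scaled to background, its ratios to H3K4me3 were 0.251 for H3R2me2s and 0.625 for the combined mark. With no bins left out, levels from 31549001 to the end of the gene were 3.12, 5.71 and 7.46 times background for H3R2me2s, the combined mark and H3K4me3, since that stretch then includes the peaks and blocks. Depth limits single blocks of H3R2me2s, which held 4 to 22 reads where short. No paired analysis was possible because there was a single library for every antibody, and leaving one out was not possible either.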
